A study of Mus musculus with 4 samples.

Results

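Acta2-high barcodes at 24 h are the cell barcodes, each standing for 1 captured cell, in which the mRNA of alpha smooth muscle actin (Acta2) was abundant after 24 h of TGF-β. They were chosen on Acta2 itself. A barcode of the 24 h library with 2000 or more counts was a member where it held at least 10 Acta2 counts per 10000 counts, and 109 of 822 such barcodes did. The library held 1328 barcodes in all and the series 3298. The members were compared with the 388 barcodes of the same library and depth that held no Acta2 count, called Acta2-null here, and the 325 barcodes between the groups entered neither. Acta2 was left out of the comparison.

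Both groups came from the same library of a primary culture of kidney Gli1+ cells from male mice aged 12 weeks. The cells had 2 h without serum and then 24 h with 1 ng/ml TGF-β, so the Acta2-null barcodes are treated cells too and not an untreated control. Single cells were captured by Drop-seq, in which beads carry a barcode for each cell, with 1 library per time. The labels do not say how the cells were labelled or sorted, or from how many mice they came. Gli1 was not analysed here, so the labelled identity was not checked on it, and values of other mesenchymal genes are given as a description. With 1 library there is no replicate and no test, and the intervals below are exact 95% intervals that cover counting error only.

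Myofibroblasts are contractile, matrix-producing cells that arise from fibroblasts and pericytes in injured kidney, and TGF-β drives their formation in culture. Alpha smooth muscle actin joins the actin stress fibres of these cells and is their standard marker. When actin monomers are built into filaments, the coactivator MRTF enters the nucleus and acts with the serum response factor SRF at a short sequence called the CArG box, which lies near many genes of the actin cytoskeleton. Gli1 marks a population of perivascular kidney mesenchymal cells that can become myofibroblasts.

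Members held 10.0 to 41.5 Acta2 counts per 10000, with a median of 15.7. In counts this was 3 to 58 per barcode, with a median of 9, and 18 members rested on 3 or 4 counts while 22 had 20 or more. The 109 members held 60.9% of the Acta2 counts of the 822 barcodes and 13.2% of all their counts. The members nearest the threshold had 10.03, 10.06 and 10.14 per 10000, and the nearest barcodes outside it 9.94, 9.93 and 9.89. From 10 to under 11 per 10000 there were 13 barcodes and from 9 to under 10 there were 16. These values chose the members and are given as a description.

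Members made up 13.3% (exact binomial interval 11.02 to 15.8) of the 24 h barcodes with 2000 or more counts. By the same rule 8 of 733 barcodes at 12 h, or 1.09% (0.472 to 2.14), and 10 of 50 at 6 h, or 20% (10.03 to 33.7), would have been members. The library labelled 0 h had no barcode of that depth. After every barcode was thinned at random to 2000 counts, the shares were 36.0% at 6 h, 4.23% at 12 h and 18.9% at 24 h. At 2000 counts the threshold is 2 Acta2 counts, so the thinned shares also take in barcodes at lower levels. One barcode at 6 h reached 121 per 10000, against 31.3 for the highest barcode at 12 h and 41.5 at 24 h. The share at 6 h rests on few barcodes, and each time has 1 library.

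**Figure D1:**
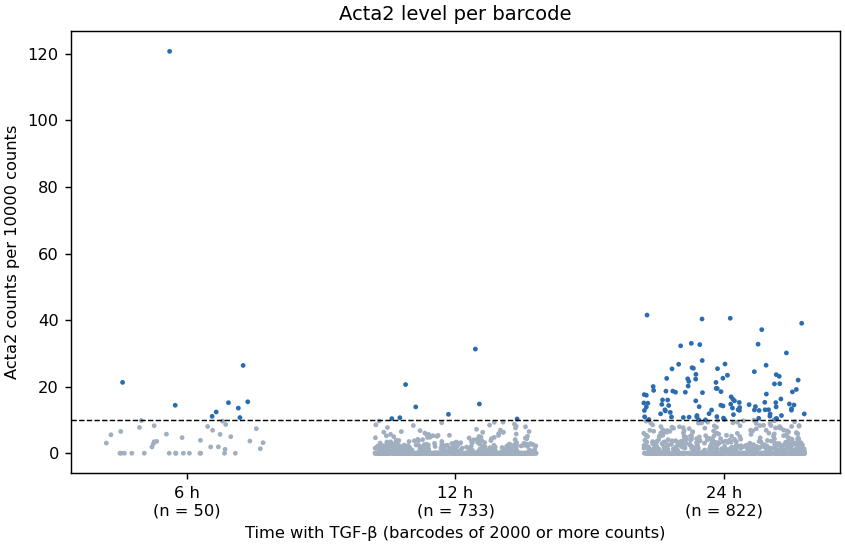
Acta2 counts per 10000 counts (vertical axis) in each barcode of 2000 or more counts, by hours with TGF-β (horizontal axis). Each point is 1 barcode, the dashed line is the threshold of 10 per 10000, and barcodes at or above it are blue. At 24 h 109 of 822 barcodes lie above the line, at 12 h 8 of 733 and at 6 h 10 of 50.

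The groups differed in depth and in nuclear RNA. Members had a median of 5579 counts (2070 to 22789) and 2490 genes, against 4693 counts (2000 to 26198) and 2163 genes in Acta2-null barcodes. Malat1, an RNA that stays in the nucleus, took a median of 0.776% of counts in members and 1.15% in Acta2-null barcodes, and mitochondrial genes took 1.54% and 1.83%. Ribosomal protein genes took 15.4% in members and 15.5% in Acta2-null barcodes. Scrublet, which marks likely doublets, called 2 members and 3 Acta2-null barcodes. Of the members, 10 had a barcode 1 base from another barcode of the library, with no such pair between members, and no barcode sequence was shared with another library. Depth was levelled by thinning, and a ratio is thinned unless it is given as one over all counts. The part of Malat1 share in the results was not tested, but values in barcodes at or under its median are given where they bear on a group.

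Among 2110 genes at 100 CPM (counts scaled to the same total of 1e+06 per group) or more in either group, 166 (7.87%) were at least 1.5-fold higher in Acta2-high than in Acta2-null barcodes and 127 (6.02%) at least 1.5-fold lower. The median log2 ratio of all 2110 genes was 0.00. Of the higher genes 132 had an interval above a ratio of 1 and 80 were also past 1.5-fold over all counts. Of the lower genes 79 had an interval below 1 and 35 were also past 1.5-fold over all counts. Over all counts, 99 of 2055 genes (4.82%) were higher and 56 (2.73%) lower. A gene could pass the floor of 100 CPM through the group where it is high alone, which 88 of the 166 higher and 88 of the 127 lower genes did, so the counts over tested genes are a description. With the floor set on the mean of both groups, a setting chosen after seeing the data, 128 of 1912 genes (6.69%) were higher and 81 (4.24%) lower.

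The clearest difference lay in the actin cytoskeleton outside Acta2. Actb, cytoplasmic beta-actin, was counted in every member at 37.2 to 127 per 10000, with a median of 72.9, against 4.79 to 137 with a median of 38.2 in Acta2-null barcodes. The groups overlapped, yet 108 of 109 members lay above the Acta2-null median and 19 of 388 Acta2-null barcodes (4.90%) lay above the members' median. Actb summed to 7239 CPM (6885 to 7605) in members and 4049 CPM (3909 to 4193) in Acta2-null barcodes, a ratio of 1.79 (1.68 to 1.90). Tropomyosin 1 (Tpm1), which winds along the actin filament, had 4.66 to 85.0 per 10000 in members, with a median of 33.4, against 0 to 76.4 with a median of 17.9. Its ratio was 1.83 (1.68 to 2.00), and 99 of 109 members lay above the Acta2-null median. Calponin 2 (Cnn2), an actin-binding protein of non-muscle cells, was counted in all 109 members at 2.14 to 31.0 per 10000, with a median of 11.6, and in 322 of 388 Acta2-null barcodes at 0 to 25.2, with a median of 5.07. Its ratio was 1.95 (1.66 to 2.28). All 3 genes together lay above their Acta2-null medians in 95 of 109 members (87.2%) and in 85 of 388 Acta2-null barcodes (21.9%). Over all counts Actb, Tpm1 and Cnn2 had ratios of 1.82, 1.90 and 2.06.

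**Figure D2:**
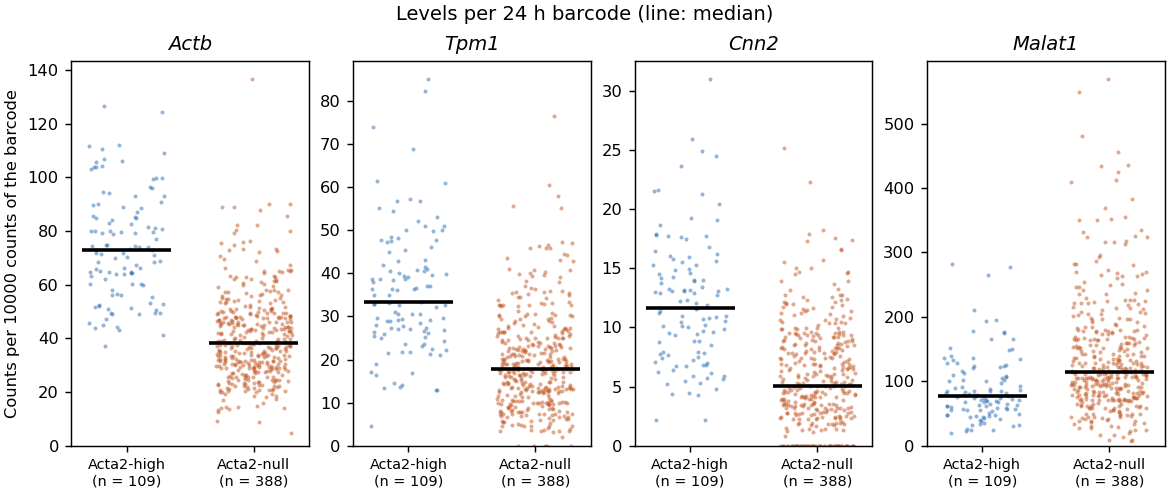
Counts per 10000 counts of the barcode (vertical axes, each with its own scale from 0) for Actb, Tpm1, Cnn2 and Malat1 in 109 Acta2-high and 388 Acta2-null barcodes of the 24 h library. Each point is 1 barcode and the line is the group's median. The 3 actin cytoskeleton genes are higher in Acta2-high barcodes (medians of 72.9 against 38.2 for Actb) and Malat1 is lower (77.6 against 115.0), with overlapping ranges in all 4 panels.

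Further actin genes were higher by similar amounts. Tpm4, a tropomyosin of stress fibres, had the eighth place among the 12 highest genes at 2.38 (1.99 to 2.85), with a median of 9.13 per 10000 in members and 3.53 in Acta2-null barcodes. Tpm2 stood at 1.92 (1.45 to 2.53), the gamma-actin gene Actg1 at 1.85 (1.41 to 2.42), the myosin light chain Myl6 at 1.97 (1.74 to 2.23) and destrin (Dstn), which severs actin filaments, at 1.93 (1.52 to 2.44). Over all counts these 5 genes had ratios of 2.48, 1.99, 2.02, 2.00 and 1.88, in the same order. Caldesmon (Cald1) stayed just under the 1.5-fold line at 1.49 (1.39 to 1.59). Read as lists, 12 of 17 tested cytoskeletal targets of SRF and MRTF were higher and none lower, with a median log2 ratio of 0.63. Of all 2110 tested genes 7.87% were higher. Csrp2, Lima1, Pdlim7 and Tgfb1i1 passed the floor through members alone and so had to be above a ratio of 1. With the floor on the mean of both groups 10 of 15 targets were higher, with a median of 0.61. Of 18 actins, actin-severing and monomer-binding genes 6 were higher, with a median of 0.40, and of 20 non-muscle myosin and crosslinking genes 6 were higher, with a median of 0.23, none of either list being lower. Some genes stand in more than 1 list. In barcodes at or under the median Malat1 share, added after seeing the data, the SRF and MRTF median was 0.65 and Actb, Tpm1 and Cnn2 had log2 ratios of 0.82, 0.91 and 1.15. The median of the actins, actin-severing and monomer-binding genes was lower there, at 0.19, against 0.40 over all barcodes.

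Genes that mark mature smooth muscle were mostly near zero counts, in members as well. Transgelin (Tagln), an actin-binding protein early in smooth muscle differentiation, had 32 counts in 18 members and 8 counts in 6 Acta2-null barcodes, a ratio over all counts of 11.8 (5.31 to 29.5). The smooth muscle myosin light chain Myl9 had 31 counts in 17 members, against 2 counts in 1 Acta2-null barcode, a ratio of 45.6 (11.6 to 393). Leiomodin 1 (Lmod1), a smooth muscle actin nucleator picked out after its values were seen, had 22 counts in members and 2 in Acta2-null barcodes. Tagln overlaps Pcsk7 on the other strand, and without a stated strand setting reads of the pair may not be told apart. Calponin 1 (Cnn1), desmin (Des), smooth muscle myosin light chain kinase (Mylk) and myocardin (Myocd) had no count in any member, and smooth muscle myosin heavy chain (Myh11) had 0 in members and 1 in Acta2-null barcodes. Hence most of the 109 members showed no count of Tagln or Myl9 at this depth. The vascular smooth muscle list as a whole, 7 of 10 genes in the table, summed to 55.2 CPM (28.5 to 96.3) in members and 6.44 CPM (2.09 to 15.0) in Acta2-null barcodes.

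Marker lists of other cell types were summed in both groups. The endothelial list summed to 32.2 CPM in members and 30.9 CPM in Acta2-null barcodes, with Pecam1, Cdh5, Tek, Tie1, Emcn and Plvap at 0 in members. The macrophage list summed to 9.19 CPM in members and 3.87 CPM in Acta2-null barcodes, with Ptprc, Csf1r, Lyz2, Cd68, Tyrobp and Fcer1g at 0 in members, and the proximal tubule list to 0 and 3.87 CPM. The Schwann cell list summed to 211 CPM in members and 237 CPM in Acta2-null barcodes, with Ncam1 the one gene tested and Cdh19 at 0 in members. The podocyte list summed to 165 CPM in members and 180 CPM in Acta2-null barcodes, with Synpo the one gene tested and Nphs1, Wt1 and Ptpro at 0 in members. The mesangial list summed to 96.5 CPM in members and 104 CPM in Acta2-null barcodes, with Serpine2 the one gene tested and Ren1, Itga8, Agtr1a, Art3 and Ptn at 0 in members. The pericyte list was at 175 CPM (124 to 240) in members and 139 CPM (114 to 168) in Acta2-null barcodes, with overlapping intervals. Of its 8 genes with data, 2 were at 0 in members, Abcc9 and Kcnj8. Its other genes held 115 counts in members over all counts. The fibroblast list was at 5451 CPM (5145 to 5770) in members and 3675 CPM (3542 to 3813) in Acta2-null barcodes, nearly all of it collagen. Of its 11 genes with data, 4 were at 0 in members, Cd34, Dpt, Pi16 and Clec3b. For the genes named in these lists as at 0 in members, the Acta2-null counts are not given. Their zeros therefore do not set the groups apart. The receptors Pdgfrb, of pericytes and fibroblasts, and Pdgfra, of fibroblasts, were too low to separate the groups, at 34 counts in members against 91 in Acta2-null barcodes and at 13 against 46. The label Acta2-high thus rests on Acta2 alone, the gene that chose the members.

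The promoters of Acta2 and of 3 actin cytoskeleton genes that were higher in members are printed to show the CArG box, the site that SRF binds. Each is the 250 bases before the start of transcription, 5′ to 3′ on the gene's own strand, from RefSeq on GRCm38.p6, with the box in capitals. Acta2 lies at chr19:34255374-34255623 on the minus strand, Actg1 at chr11:120348496-120348745 minus, Cnn2 at chr10:79988350-79988599 plus and Myl6 at chr10:128493010-128493259 minus, 1 of its 2 promoters in the table.
Acta2: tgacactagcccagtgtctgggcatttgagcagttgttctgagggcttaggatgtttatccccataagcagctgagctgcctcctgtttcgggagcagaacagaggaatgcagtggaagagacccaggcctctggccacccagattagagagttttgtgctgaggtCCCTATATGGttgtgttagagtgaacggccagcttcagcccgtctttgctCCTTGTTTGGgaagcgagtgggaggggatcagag
Actg1: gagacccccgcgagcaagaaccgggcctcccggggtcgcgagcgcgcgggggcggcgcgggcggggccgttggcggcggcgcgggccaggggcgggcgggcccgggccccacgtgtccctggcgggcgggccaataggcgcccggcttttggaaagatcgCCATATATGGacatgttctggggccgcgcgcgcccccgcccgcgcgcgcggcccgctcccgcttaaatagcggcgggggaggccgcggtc
Cnn2: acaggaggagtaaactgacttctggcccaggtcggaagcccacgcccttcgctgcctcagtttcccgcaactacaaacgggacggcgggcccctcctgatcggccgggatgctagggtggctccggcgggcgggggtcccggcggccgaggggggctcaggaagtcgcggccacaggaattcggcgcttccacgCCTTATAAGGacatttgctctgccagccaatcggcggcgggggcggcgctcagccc
Myl6: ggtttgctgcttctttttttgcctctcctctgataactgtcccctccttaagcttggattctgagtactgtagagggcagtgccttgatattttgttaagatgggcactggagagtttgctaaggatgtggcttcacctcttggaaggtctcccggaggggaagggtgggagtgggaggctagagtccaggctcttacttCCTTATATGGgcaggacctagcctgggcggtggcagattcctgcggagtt
The box was searched as CC, then 6 letters that are each A or T, then GG, which reads the same way on both strands. It began 90 bases before the start in Actg1, 56 in Cnn2 and 50 in the printed promoter of Myl6. The other Myl6 promoter, at chr10:128493887-128494136 minus, held no such box. The Acta2 window held no such exact box but held 2 boxes with 1 C or G among the 6 middle letters, beginning 84 and 34 bases before the start. An exact box was present in 1.47% of 32851 promoters and in 1.56% of 1602 tested genes with a promoter. A box with 1 such letter was present in 7.24% and 8.18% of these, and in 3 of 43 genes (6.98%) of the actin lists, a close share. The exact box was present in 6 of the 43 tested genes of the 4 actin lists that matched a promoter, of 53 tested. Of the 23 that were higher 17 had a promoter, and 5 held the exact box, namely Actg1, Cnn2, Filip1l, Lima1 and Myl6. A gene was counted where any of its promoters held the box. As 1 of the 4 lists was made of targets of SRF, which binds the box, a raised share was built in and supports nothing. The Tpm1 and Tpm4 windows held none. A match of letters is a description and shows no binding, and an absent match says nothing of the factor.

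The 12 highest genes were Fdps, Nsdhl, Klra4, Prkcdbp, Ddah1, Tgfb1i1, Sc4mol, Tpm4, Ehbp1l1, Fbn1, Sdpr and Sec11c. Farnesyl diphosphate synthase (Fdps), of the mevalonate pathway, stood at 3.57 (2.28 to 5.57), from 198 CPM in members and 55.4 CPM in Acta2-null barcodes, so that it passed the floor through members alone. Over all counts it stood at 2.37 (1.87 to 2.99), under Sc4mol and Nsdhl. The sterol dehydrogenase Nsdhl stood at 3.47 (2.13 to 5.65) thinned and 2.59 over all counts. Sc4mol, the older symbol of the sterol oxidase Msmo1, stood at 2.47 (1.72 to 3.51) thinned and 3.02 (2.497 to 3.65) over all counts, and was counted in 69 of 109 members and 125 of 388 Acta2-null barcodes. Of 6 tested genes of cholesterol synthesis 5 were higher, among them Fdps, Nsdhl, Cyp51 and Sqle, with a list median of 1.02. These 5 passed the floor through members alone and so had to be higher, and their count and median support nothing. With the floor on the mean of both groups 4 genes were left, of which Fdps, Nsdhl and Cyp51 were higher. Hmgcs1, which passed the floor in both groups, stood at 1.41 thinned and 2.47 over all counts. Sc4mol was not in that list because the list held the newer symbol. In barcodes at or under the median Malat1 share the list's median was 1.32.

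Cavin 2, listed under its older symbol Sdpr, and cavin 3, listed as Prkcdbp, coat caveolae, the small pits of the plasma membrane. Sdpr had a median of 12.7 per 10000 in members, up to 46.1, against 4.35 in Acta2-null barcodes, up to 36.5, and a ratio of 2.28 (1.96 to 2.65) thinned and 2.17 over all counts. Prkcdbp stood at 3.03 (1.86 to 4.91) thinned and 2.23 over all counts. Tgfb1i1, a focal adhesion protein known as Hic-5, stood at 2.65 (1.53 to 4.53) and 2.22, and Ddah1, which breaks down an inhibitor of nitric oxide synthase, at 2.83 (1.56 to 5.06) and 2.35. The intervals of these low genes are wide, and their order among the 12 highest is not resolved by the counts. Ehbp1l1 stood at 2.38 thinned and 1.58 over all counts, and Sec11c, a signal peptidase subunit, at 2.25 and 1.48, the only one of the 12 not past 1.5-fold over all counts. Klra4, at 3.04 (1.66 to 5.50), belongs to a family of near-identical receptor genes between which reads could be split, and is uncertain. Over all counts Prkcdbp, Ddah1, Ehbp1l1, Sec11c and Klra4 were at 54.7, 50.7, 51.6, 52.5 and 36.6 CPM in Acta2-null barcodes. These levels are under the floor of 100 CPM. Such genes could pass it through members alone, so that their ratios lie above 1 supports nothing. Of 10 integrin and focal adhesion genes Ilk, Fermt2 and Parva, which link integrins to actin, were higher and none was lower, with ratios of 2.14, 1.81 and 1.53 thinned and 2.15, 1.96 and 1.46 over all counts. Of all 2110 tested genes 7.87% were higher. Ilk passed the floor through members alone. With the floor on the mean of both groups 3 of these 10 genes were still higher, against 6.69% of all 1912 genes.

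**Figure D3:**
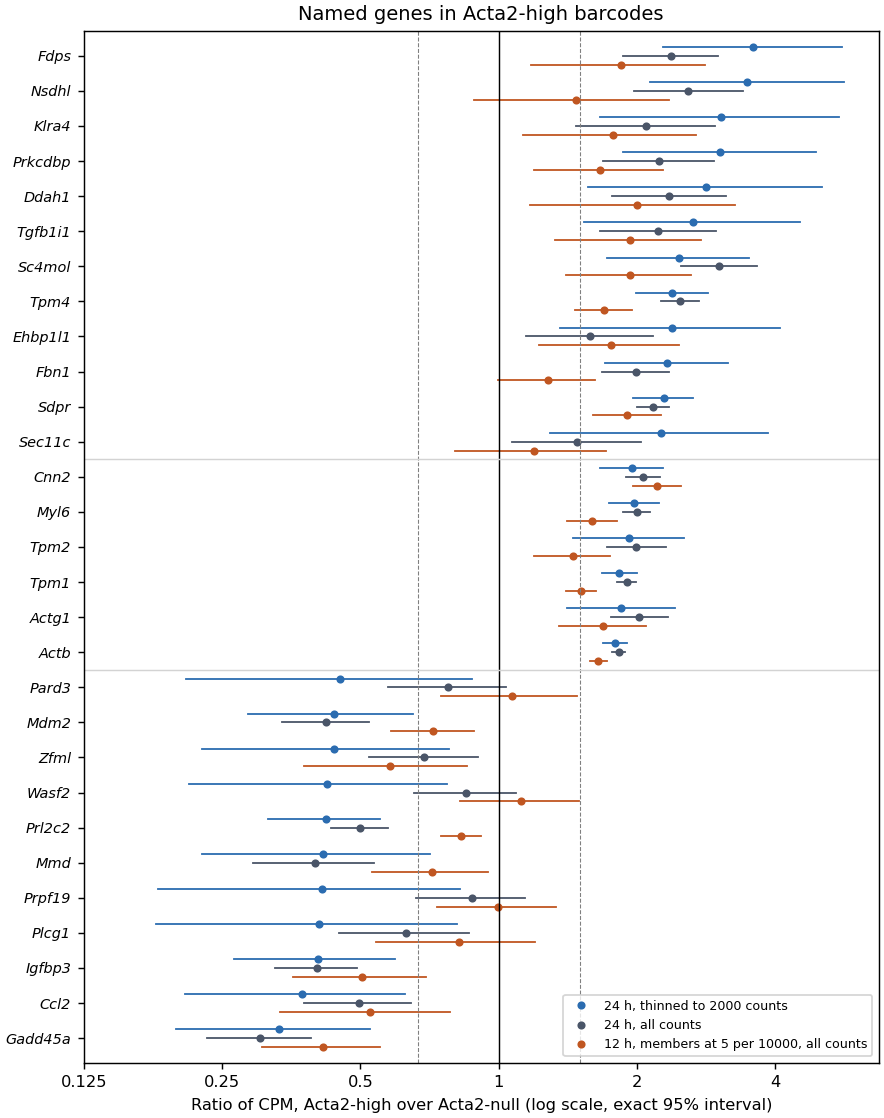
Ratio of CPM in Acta2-high over Acta2-null barcodes (horizontal log axis) for the 12 highest genes, 6 actin cytoskeleton genes and 11 of the 12 lowest genes. Points are the 24 h ratio thinned to 2000 counts per barcode (blue), the 24 h ratio over all counts (grey) and the ratio in the 12 h library with members at 5 per 10000 (orange), bars are exact 95% intervals, and dashed lines mark 1.5-fold. The 3 points of the 6 actin genes lie together between 1.45 and 2.21, while Prpf19, Wasf2 and Pard3 have grey points between 0.777 and 0.873, short of 1.5-fold.

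Matrix genes were split. Among fibrillar collagens Col5a2, with 1544 CPM in members and 817 CPM in Acta2-null barcodes, had a ratio of 1.89 (1.65 to 2.16), Col3a1 one of 1.82 (1.48 to 2.24), Col5a1 one of 1.92 (1.24 to 2.92) and Col11a1 one of 1.78 (1.22 to 2.58). Col1a2 stood at 1.48 (1.37 to 1.60) and Col1a1 at 1.25 (0.992 to 1.58). Over all counts Col5a2, Col3a1, Col5a1, Col11a1 and Col1a2 stood at 1.77, 1.75, 2.005, 2.30 and 1.42, and Col1a1 at 1.57 (1.40 to 1.76). So 4 of 6 were higher and none lower, with a median log2 ratio of 0.85, against 7.87% of all 2110 genes higher. Col5a1 passed the floor through members alone. With the floor on the mean of both groups 4 of 6 were still higher. Lysyl oxidase (Lox) and its relative Loxl2, which crosslink collagen, were at 2.03 (1.61 to 2.54) and 1.72 (1.47 to 2.02). Of 14 collagen processing genes 5 were higher. Crtap, Fkbp10, P4ha2 and Pcolce of this list passed the floor through members alone. With the floor on the mean of both groups 5 of 14 were still higher. Fibrillin 1 (Fbn1), of elastic microfibrils, stood at 2.32 (1.71 to 3.15) and Sparc, a collagen-binding glycoprotein, at 1.60 (1.47 to 1.74). Over all counts Lox, Loxl2, Fbn1 and Sparc stood at 1.94, 1.65, 1.98 and 1.57. Fibronectin (Fn1) ran the other way, at 2748 CPM (2532 to 2978) in members and 3863 CPM (3726 to 4004) in Acta2-null barcodes, a ratio of 0.711 (0.651 to 0.777), which is short of 1.5-fold, and 0.694 over all counts. Its median was 25.9 per 10000 in members and 36.3 in Acta2-null barcodes. Of 15 matrix glycoproteins 2 were higher and none lower, with a median of -0.13. Periostin (Postn) had no count in members and 3 in Acta2-null barcodes.

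Among genes of the TGF-β response Tgfb1i1, given above, and connective tissue growth factor (Ctgf) were higher. Tgfb1i1 passed the floor through members alone. Ctgf stood at 1.54 (1.28 to 1.86) thinned and 1.46 over all counts. The feedback gene Pmepa1 stood at 0.862 (0.710 to 1.04). Of 13 chaperones of the endoplasmic reticulum 4 were higher, Hspa5, Calr, Pdia6 and Creld2, with ratios of 1.64, 1.57, 1.57 and 1.86 and a list median of 0.45. Over all counts these 4 stood at 1.65, 1.57, 1.55 and 1.59. Creld2 and Dnajb11 passed the floor through members alone. With the floor on the mean of both groups 3 of 12 chaperones were higher, against 6.69% of all 1912 genes. Among 11 tubulin and intermediate filament genes Nes, Tubb6 and Tuba1b were higher, nestin (Nes) at 1.98 (1.60 to 2.45) and 1.85 over all counts. No member of these 3 lists was lower.

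Gadd45a, a stress gene that p53 induces, had the lowest thinned ratio of all tested genes, 0.332 (0.199 to 0.525), from 91.9 CPM in members and 277 CPM in Acta2-null barcodes, and was at 0.302 (0.232 to 0.389) over all counts. It was counted in 41 of 109 members and 251 of 388 Acta2-null barcodes. Mdm2, the ubiquitin ligase that p53 induces and that degrades p53, stood at 0.438 (0.285 to 0.650) and at 0.422 over all counts. The other p53 targets did not follow as a list: of 9 tested Gadd45b was higher, Gadd45a and Mdm2 were lower, and the median was -0.06. Of all 2110 tested genes 7.87% were higher and 6.02% lower. Gadd45b passed the floor through members alone and so had to be above 1. Igfbp3, which binds insulin-like growth factors, stood at 0.404 (0.265 to 0.594) and Igfbp4 at 0.553 (0.327 to 0.890), while Igf1 itself stood at 1.57 (1.20 to 2.05). Over all counts Igfbp3, Igfbp4 and Igf1 stood at 0.402, 0.608 and 1.56. The chemokines Ccl2 and Ccl7, which attract monocytes, stood at 0.373 (0.208 to 0.625) and 0.525 (0.330 to 0.801), and at 0.496 and 0.492 over all counts. The 6 tested chemokines, cytokines and adhesion genes did not follow them, with 2 lower, none higher, 3 above a ratio of 1 and a median of 0.0074. Cxcl12 stood at 1.11 and Csf1 at 1.05. Ccl2 was counted in 26 of 109 members and 128 of 388 Acta2-null barcodes, so most barcodes of both groups had none. Prl2c2, a proliferin with near-identical relatives between which reads could be split, stood at 0.420 (0.315 to 0.553) thinned and 0.498 over all counts, and Mmd at 0.415 (0.226 to 0.710) and 0.399.

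Malat1 was at 8999 CPM in members and 13910 CPM in Acta2-null barcodes, a ratio of 0.647 (0.616 to 0.679), and Neat1, the RNA scaffold of nuclear paraspeckles, at 0.524 (0.396 to 0.684). Over all counts they stood at 0.660 and 0.512. The 4 tested genes of the list of nuclear-retained RNAs, Gas5, Meg3, Malat1 and Neat1, were all below 1, with a median of -0.53. Of these 2 were past 1.5-fold lower, against 6.02% of all 2110 genes. For Malat1, 27 of 109 members lay above the Acta2-null median. In barcodes at or under the median Malat1 share, Gadd45a, Mdm2 and Igfbp3 had log2 ratios of -1.68, -1.09 and -0.96. Of the 12 lowest genes 7 were past 1.5-fold over all counts. Prpf19, Wasf2, Zfml and Pard3 were not, at 0.873, 0.847, 0.689 and 0.777, and Plcg1 was, at 0.627. The proliferation marker Mki67 had 1 count in members and 39 counts in 9 Acta2-null barcodes.

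**Figure D4:**
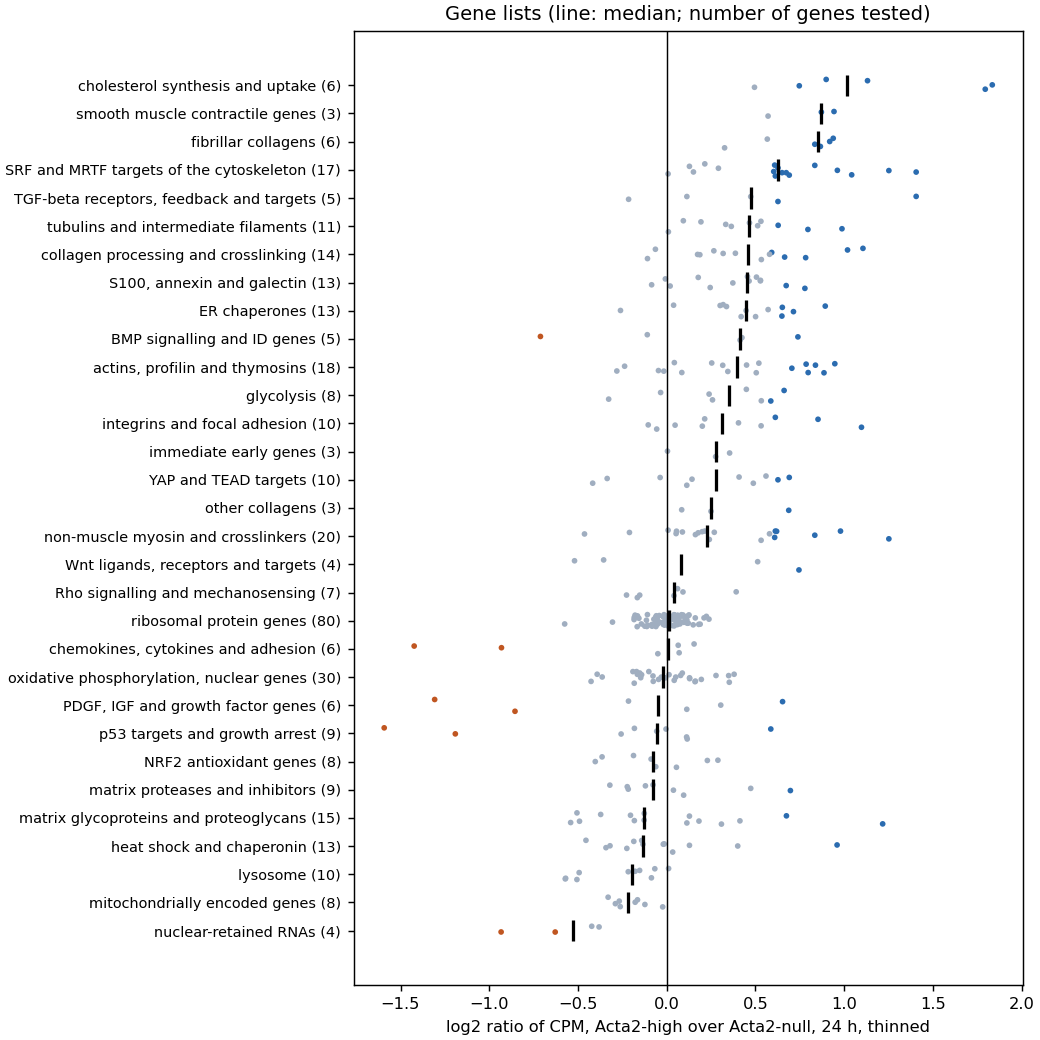
log2 ratio of CPM, Acta2-high over Acta2-null barcodes at 24 h, thinned (horizontal axis), for the tested genes of each list (1 row per list, with the number tested). Points are genes, blue where at least 1.5-fold higher and orange where at least 1.5-fold lower, and the black line is the list's median. Cholesterol synthesis, contractile and fibrillar collagen genes have medians of 1.02, 0.87 and 0.85, and the list of nuclear-retained RNAs has the lowest at -0.53. The cholesterol median rests on 5 genes that passed the floor of 100 CPM through Acta2-high barcodes alone. The contractile median rests on 3 tested genes, Tpm2, Tpm1 and Cald1. Of the 19 contractile genes with data, 7 had no count in Acta2-high barcodes.

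None of 80 ribosomal protein genes and none of 30 nuclear genes of oxidative phosphorylation was past 1.5-fold either way, with medians of 0.01 and -0.02. The 8 mitochondrially encoded genes had a median of -0.22. The 10 tested lysosomal genes had a median of -0.20, with 1 above a ratio of 1 and none past 1.5-fold. Over all counts their median was -0.35, and the sphingolipid activator precursor Psap was past 1.5-fold lower at 0.650.

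The 822 barcodes were cut into 5 classes, none, above 0 to under 5, 5 to under 10, 10 to under 20 and 20 or more Acta2 counts per 10000, with 388, 237, 88, 75 and 34 barcodes. In this order Actb stood at 4061, 4736, 6182, 7136 and 7879 CPM over all counts, and Tpm1 at 1955, 2477, 3130, 3365 and 4328 CPM. Cnn2 stood at 593, 779, 957, 1097 and 1439 CPM. Each of these genes was higher in every next class, with the 34 barcodes of the top class above the other members. Sc4mol stood at 97.5, 138, 226, 245 and 381 CPM. Gadd45a was lower in every next class, at 287, 199, 152, 93.2 and 75.5 CPM, and so was Fn1, at 3820, 3351, 2922, 2726 and 2515 CPM. Malat1 stood at 13579, 12619, 10456, 9496 and 7997 CPM, and so moved along the same classes. Of the 12 highest genes 7 were higher in each next class and of the 12 lowest 6 were lower in each, against 5.92% and 4.22% of all 2110 genes. The end classes hold the barcodes on which these 24 genes were chosen, so the counts describe the order between them only. Depth did not run with the classes, with medians of 4693, 8009, 6661, 5439 and 6377 counts.

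**Figure D5:**
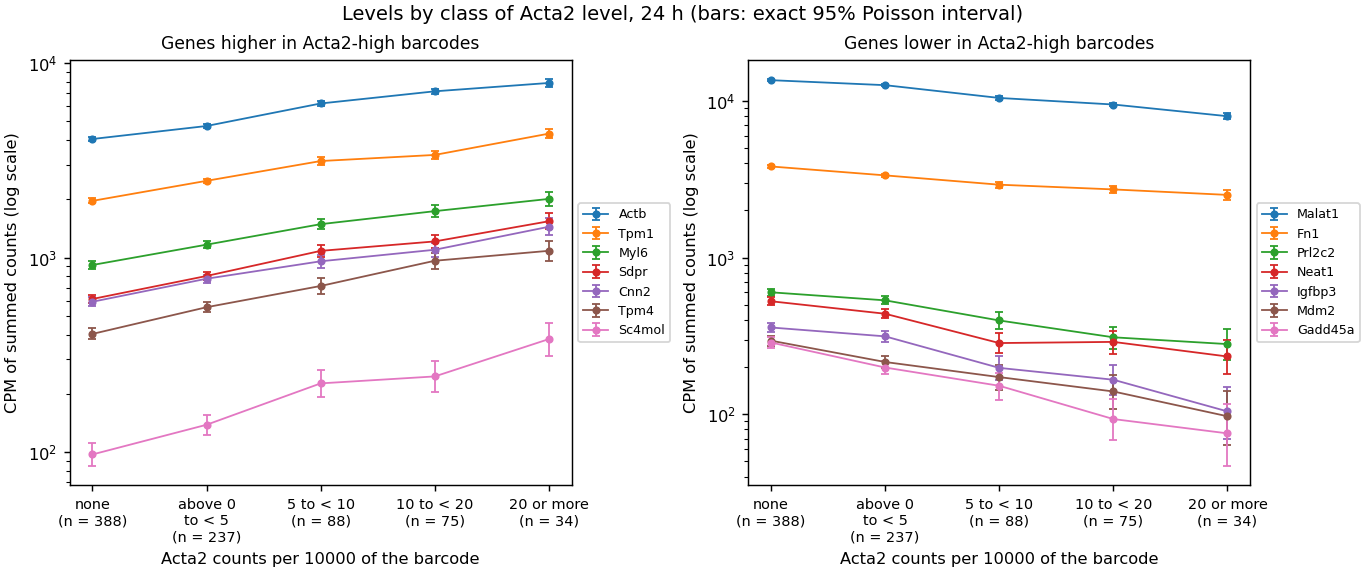
CPM of summed counts (vertical log axes) in 5 classes of Acta2 level in the 24 h library, from no Acta2 count to 20 or more per 10000 (horizontal axes, with the number of barcodes). Lines are genes higher (left) or lower (right) in Acta2-high barcodes, and bars are exact 95% Poisson intervals. Actb runs between 4061 CPM without Acta2 and 7879 CPM in the top class, and Gadd45a between 287 and 75.5 CPM.

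The 12 h library, which took no part in choosing the members, was compared in the same way. Whether its cells came from the same culture as those at 24 h is not known here. Too few of its barcodes reached 10 per 10000, so the threshold was lowered to 5 after seeing the data, which gave 43 Acta2-high against 503 Acta2-null barcodes of 2000 or more counts, compared over all counts. All 12 genes that were highest at 24 h were above a ratio of 1 at 12 h, and 9 were past 1.5-fold, against 50.5% and 2.99% of the 2110 genes, but the groups differed in depth, with medians of 7465 and 5659 counts. Of the 12 lowest 10 were below 1, all but Wasf2 and Pard3, and 4 were past 1.5-fold, against 49.5% and 2.51%. With each barcode thinned to 2000 counts, also chosen after seeing the data, 10 of the 12 highest were above 1, not Ehbp1l1 at 0.732 and Sec11c at 0.791, and 8 were past 1.5-fold, against 49.7% and 8.2% of the genes. Of the 12 lowest all were then below 1 and 6 past 1.5-fold, against 50.3% and 10.7%. Over all counts Actb had a ratio of 1.65 (1.58 to 1.72) at 12 h, from 6888 CPM in Acta2-high and 4182 CPM in Acta2-null barcodes, and Cnn2 one of 2.21. Cyp51 stood at 2.83, Sqle at 2.66 and Gadd45a at 0.415. With the same lower threshold the median of SRF and MRTF targets was 0.55 at 12 h and 0.51 at 24 h. The cholesterol median, over the genes that passed at 24 h, was 1.29 at 12 h and 1.22 at 24 h. Fibrillar collagens had a median of 0.32 at 12 h and 0.77 at 24 h, with Col3a1 at 1.18 and Col5a2 at 1.18 at 12 h. The 2 libraries were set side by side and the difference between them was not tested.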

How the data were processed

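Counts as deposited by the authors are whole numbers for 17391 genes in 3298 barcodes of 4 libraries, and the unit was read from the values. The submitters' processing notes name STAR 2.5.3a and the build mm10. How barcodes were filtered, reads counted and annotated, strand used and UMIs collapsed is not stated in those sources. No column belonged to no sample.

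Barcodes of 2000 or more counts were each thinned at random to 2000 counts (numpy 2.4.6, seed 1), counts were summed per group without Acta2 and scaled to CPM. The group sums held 217586 counts in Acta2-high and 776000 in Acta2-null barcodes, and 771359 and 2267064 before thinning. Ratios have exact conditional binomial intervals and CPM exact Poisson intervals (scipy 1.17.1), for counting error only. Reads without stated UMIs are not independent molecules. A gene was tested at 100 CPM or more in either group and called at 1.5-fold. A gene with no count in a group took 3 counts there, summed over the group. The method was tested on simulated data.

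Named genes are the 12 highest and 12 lowest ratios among tested genes, without mitochondrial and ribosomal protein genes and without predicted or unnamed ones, a set of contractile, matrix and control genes, and up to 4 members of each of 38 gene lists with the largest ratio. The 13 marker lists were summed. A few named genes are not reported here. The members and lists were chosen with earlier results of these data known. The comparison by the same rule at 6 h and 12 h was planned only where each group held 20 or more barcodes, and neither library had that many. Scrublet came from scanpy 1.11.5. Scaling factors came from edgeR 4.0.16 and DESeq2 1.42.0, used for scaling only. Gene overlaps were read from GENCODE and promoters from RefSeq.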

Additional observations from a re-analysis of the deposited data

How the results depend on the processing

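The counts of called genes depend on depth handling and thresholds, and counting error in the thinned sums adds calls. Genes higher, 166 as reported, numbered 99 without thinning, 96 with barcodes matched on total counts, 292 thinned to 1000 counts, 96 with equal weight per barcode over all counts, 95 with members at 5 and 423 at 20 Acta2 counts per 10000. They numbered 410 with a floor of 50 CPM, 66 at 200 CPM, 4316 with none, 22 at 2-fold and 341 at 1.3-fold. Genes lower, 127 as reported, numbered in the same order 56, 74, 252, 63, 66 and 286, then 446, 28, 1905, 23 and 281, 206 in barcodes at or under the median Malat1 share and 81 with the floor on the mean of both groups. The equal-weight, Malat1, mean-floor and 12 h settings were chosen after seeing the data. The share of members, 13.3%, was 18.9% after thinning, 24.0% at 5 and 4.14% at 20 per 10000. Other settings, among them TMM and DESeq2 scaling, left these values within 1.5 times or within the interval of the share. Of 2304 log2 ratios of the named genes reported here under the alternatives, 12 turned direction, and the cause was not tested. Prpf19 was at 0.052 with members at 5 per 10000. Ehbp1l1 and Sec11c were at -0.17 and -0.41 thinned to 1000 counts. Fst was at -0.23 with matching, -0.038 with members at 20 and -0.90 at low Malat1, Id3 at 0.10 with matching, 0.17 at 5000 counts and 0.28 without doublet calls, and S100a13 at -0.017 with another seed, -0.0019 with members at 5 and -0.36 at low Malat1. The medians of SRF and MRTF targets, 0.49 to 0.80, and fibrillar collagens, 0.59 to 0.96, kept their sign in every setting run. In these 2 lists 4 of 17 and 1 of 6 genes passed the floor through members alone. The median of cholesterol genes ran from 0.65 to 1.496. As 5 of its 6 genes passed the floor through members alone, its sign supports nothing. No paired analysis was possible because each time has 1 library. With 109 members, genes near 100 CPM rest on some 20 thinned counts and their intervals are wide.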
